A study of Homo sapiens with 6 samples.

Results

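The integrated stress response genes ATF4, ATF3, DDIT3, DDIT4, SESN2, TRIB3, CHAC1, ASNS and PSAT1, together with the stress cytokine gene GDF15, were followed in NCI-N87 cells, an established gastric carcinoma line, after knockdown of SCAMP1. The set was picked by gene symbol among the 19951 protein-coding rows of the deposited table, and all 10 genes were found among its 58735 genes. The shNC group carried the empty lentiviral vector pSIH-H1-puro, and the shScamp1 group carried the vector with an shRNA against SCAMP1, which encodes a secretory carrier membrane protein. The series design names groups shCtrl and shS1#1, and shNC and shScamp1 were taken to be these. The labels do not tie the names together, and the vectors given for the groups rest on this match. All cells of both groups were stable populations kept after selection with puromycin (2 μg/ml), and RNA-seq libraries of 3 samples per group were compared. A single shRNA was sequenced, so an effect of SCAMP1 loss and an effect of this hairpin cannot be told apart. The labels call the samples biological replicates without naming separate infections, so p-values measure the spread between these samples, which may be technical.

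The integrated stress response begins with kinases that phosphorylate the translation initiation factor eIF2. Phosphorylated eIF2 slows general protein synthesis while ATF4 mRNA is translated more, and much of the control of ATF4 therefore lies at translation, which RNA-seq does not measure. ATF4 protein then activates genes of amino acid supply and further stress regulators, among them DDIT3 (CHOP), ATF3, TRIB3, CHAC1, ASNS, PSAT1, SESN2 and DDIT4. GDF15 is a secreted protein of the TGF-beta superfamily that is induced by several kinds of cell stress and acts on the brain receptor GFRAL to lower food intake.

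ATF4 binds with C/EBP proteins to composite C/EBP-ATF elements, so the promoters of the 10 genes were searched on both strands for TGATGNAA and TTGCATCA, forms of this element, for TGACGTCA (the cAMP response element) and for TGANTCA (the AP-1 element). TTGCATCA read on its other strand is also a match to TGATGNAA. RefSeq windows on GRCh38.p14 were matched by symbol for 10 of 10 genes, 16 windows in all, each reaching from 250 bases before to 50 bases after an annotated start. TGATGNAA was found in 3 of the 16 windows, 1 each of CHAC1, ASNS and ATF3, against 3.62% of all 35116 RefSeq windows. TTGCATCA was found in 1 window, of CHAC1 (0.866% of all windows), TGANTCA in 2 windows, both of DDIT3 (7.71%), and TGACGTCA in no window of the 10 genes (1.85%). The windows of the other 6 genes, GDF15 among them, held no match to these letters. The 250 bases before the start are shown for the 3 genes with a TGATGNAA match, so that they can be set beside the values of these genes, and for GDF15, the gene with the highest fold change of the 10. Capitals mark the match. The CHAC1 sequence lies at chr15:40953221-40953470 on the forward strand, with its match starting 209 bases before the start. The ASNS sequence lies at chr7:97872409-97872658 on the reverse strand, before the more upstream of its 2 starts, with TGATGAAA starting 68 bases before it. The ATF3 sequence lies at chr1:212565157-212565406 on the forward strand, before the more upstream of its 2 starts, with TGATGGAA starting 191 bases before it. The GDF15 sequence lies at chr19:18385908-18386157 on the forward strand.
CHAC1: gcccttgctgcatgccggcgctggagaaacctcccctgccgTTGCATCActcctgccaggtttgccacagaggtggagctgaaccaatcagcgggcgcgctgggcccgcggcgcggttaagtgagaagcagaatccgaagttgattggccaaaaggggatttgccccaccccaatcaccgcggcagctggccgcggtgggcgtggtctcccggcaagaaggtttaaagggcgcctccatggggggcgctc
ASNS: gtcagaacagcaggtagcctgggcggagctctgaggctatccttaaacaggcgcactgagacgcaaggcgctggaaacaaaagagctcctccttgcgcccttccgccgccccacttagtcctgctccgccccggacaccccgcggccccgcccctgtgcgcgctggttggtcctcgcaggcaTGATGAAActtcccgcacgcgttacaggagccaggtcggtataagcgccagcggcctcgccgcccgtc
ATF3: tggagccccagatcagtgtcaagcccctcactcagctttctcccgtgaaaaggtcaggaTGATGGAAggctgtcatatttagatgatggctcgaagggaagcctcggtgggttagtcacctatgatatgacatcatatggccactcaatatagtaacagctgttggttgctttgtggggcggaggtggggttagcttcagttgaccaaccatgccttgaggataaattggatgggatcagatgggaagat
GDF15: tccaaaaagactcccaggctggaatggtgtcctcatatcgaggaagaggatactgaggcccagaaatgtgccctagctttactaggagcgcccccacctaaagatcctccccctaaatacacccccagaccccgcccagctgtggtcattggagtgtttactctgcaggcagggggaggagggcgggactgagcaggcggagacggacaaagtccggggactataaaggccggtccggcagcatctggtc

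The libraries held 14311769 to 15988700 reads on genes. SCAMP1 transcript, the target of the shRNA, stood at 12.6, 12.1 and 11.5 FPKM (reads scaled to gene length and library size) in shNC and at 1.70, 1.37 and 1.99 FPKM in shScamp1 libraries. The knockdown amounted to -2.78 on the log2 scale (SE 0.14, limma adjusted p = 0.000248), and to -2.65 without shScamp1 replicate 2. The 7 epithelial markers were all detected, with a summed level of 5528 to 5812 FPKM in shNC and 9234 to 10149 FPKM in shScamp1 libraries. Of 10 markers of fibroblasts, endothelium and blood cells, only COL1A1 reached a mean of 0.5 FPKM. The 10 summed to 0.824 to 1.16 FPKM in shNC and 1.22 to 1.40 FPKM in shScamp1 libraries, and COL1A2 was at 0 in all 6. One library stood apart: in shScamp1 replicate 2 mitochondrial genes took 9.21% of the reads, against 6.09% to 6.78% in the other 5. The SD over genes of its log2 differences from replicates 1 and 3 was 0.796 and 0.766, against 0.639 between those replicates and 0.606 to 0.624 between shNC libraries. The results of the 10 genes are therefore given with and without this library. It was left out after its spread was seen, and the fit without it keeps shScamp1 replicates 1 and 3, the shScamp1 pair most alike. Standard errors and adjusted p-values from that fit can therefore be too small. In bulk RNA, fewer expressing cells and less RNA per cell cannot be told apart.

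After SCAMP1 knockdown, GDF15, SESN2 and PSAT1 were higher, and the other 6 genes tested did not pass the test with all libraries. GDF15 was 4.26-fold, SESN2 2.32-fold and PSAT1 1.65-fold higher by mean FPKM. The transcript of ATF4, the central factor of the pathway, had a lower mean that did not pass the test. Expression was tested by limma (fold changes with their standard error, SE) on log2(FPKM + 0.1) in genes whose mean over the libraries reached 0.5 FPKM, and a gene was called at a Benjamini-Hochberg adjusted p under 0.05 over all 15556 genes tested. The scale understates the change of low genes. ASNS was below the filter, so 9 of the 10 genes were tested and 3 were called higher. Among all genes tested 8.82% were called higher and 5.17% lower. GDF15 and SESN2 also had a log2 fold change above 1, the additional criterion for differential expression, as 2.42% of all genes did in this direction and 0.746% in the other. The median log2 fold change was 0.49 over the 9 genes, which is the value of ATF3, and -0.02 over all genes. The median of the 9 was 0.34 with a pseudocount of 1, 0.29 without shScamp1 replicate 1 and 0.78 without shScamp1 replicate 2. The 10 genes were chosen with earlier results of these data known, so their counts and median do not set them apart. Without shScamp1 replicate 2, 6 of the 9 were called higher, against 14.9% of all genes, and ATF4 and TRIB3 were called lower, against 13.4% of all genes. These calls rest on the shScamp1 libraries most alike, kept after the spread was seen, and weigh less than those with all libraries. The libraries of the groups were fully apart for GDF15, SESN2, PSAT1 and CHAC1, which were higher (20.4% of all genes), and for ATF4 and TRIB3, which were lower (21.0%). Where they did not overlap, the exact two-sided permutation test gave p = 0.1, the smallest that 3 samples against 3 allow.

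**Figure D1:**
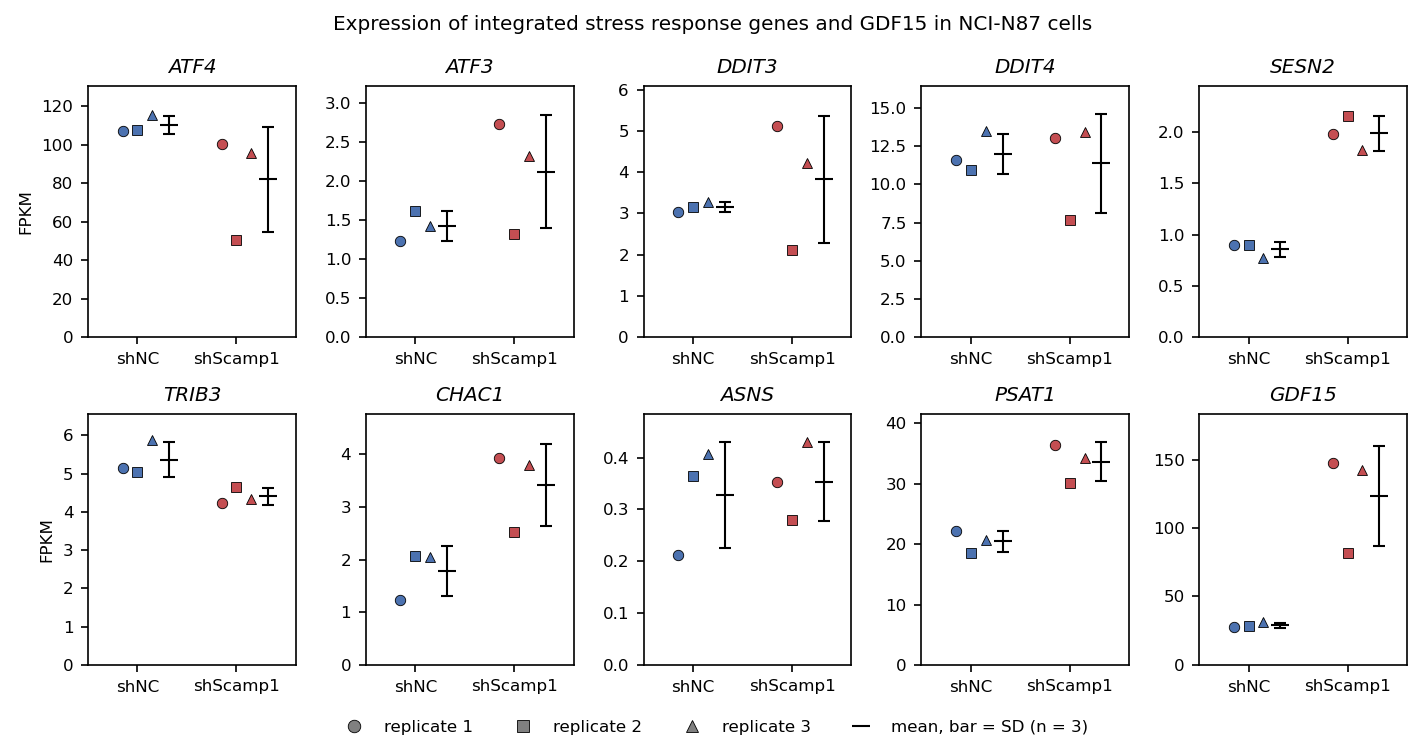
FPKM (linear axis from 0) of each of the 10 genes in the shNC (blue) and shScamp1 (red) libraries, with marker shape for the replicate and a bar for the mean and SD (n = 3). GDF15 sits at 27.8 to 31.1 FPKM in shNC and at 81.6 to 147 FPKM in shScamp1 libraries, and the square for shScamp1 replicate 2 lies below the other shScamp1 libraries in 8 of the 10 panels.

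The 10 transcripts differed widely in level. In shNC cells ATF4 had the highest mean, 110 ± 4.54 FPKM (SD, n = 3), a level above 97.8% of the protein-coding genes tested. It was followed by GDF15 (29.1 FPKM), PSAT1 (20.4), DDIT4 (12.0), TRIB3 (5.36), DDIT3 (3.16), CHAC1 (1.78), ATF3 (1.43), SESN2 (0.856) and ASNS (0.328). Only CHAC1 and ATF3 were neighbours in this order whose libraries overlapped. In shScamp1 cells GDF15 had the highest mean, 124 ± 36.5 FPKM (SD, n = 3), above ATF4 at 82.1 ± 27.3 FPKM. GDF15 was above ATF4 in each of the 3 shScamp1 libraries and below it in each of the 3 shNC libraries, although the ranges of both genes over the shScamp1 libraries overlapped.

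Among the transcription factors, ATF4, ATF3 and DDIT3 did not pass the test with all libraries, and in each the shScamp1 replicate 2 library was the lowest of all 6 or close to the lowest. ATF4, the bZIP factor that carries the response to its target genes, was at 107, 108 and 115 FPKM in shNC and at 100.1, 50.7 and 95.6 FPKM in shScamp1 libraries, from 1746 to 4515 reads. All shScamp1 values lay below all shNC values, and replicate 2 lay far below the other shScamp1 libraries. This gave a log2 fold change of -0.49 for ATF4 (SE 0.26, adjusted p = 0.256 by limma). Without replicate 2 it was -0.17 (SE 0.05, adjusted p = 0.0438 by limma), which did pass, at 0.888 of the shNC mean. The smaller SE follows from leaving out the library that differed most.

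ATF3, a bZIP repressor and activator induced early in many stress responses, was at 1.23, 1.62 and 1.43 FPKM in shNC and at 2.73, 1.32 and 2.32 FPKM in shScamp1 libraries. Replicates 1 and 3 of shScamp1 were above every shNC library, and replicate 2 was within the shNC range. ATF3 had a log2 fold change of 0.49 (SE 0.27, adjusted p = 0.269 by limma), and of 0.78 without replicate 2 (adjusted p = 0.0140). DDIT3, which encodes the pro-apoptotic factor CHOP, was at 3.04, 3.17 and 3.27 FPKM in shNC and at 5.13, 2.12 and 4.24 FPKM in shScamp1 libraries. Its shScamp1 libraries therefore lay on both sides of the narrow shNC range. The log2 fold change of DDIT3 was 0.18 (95% confidence interval -0.56 to 0.92, adjusted p = 0.723 by limma), and 0.55 without replicate 2 (adjusted p = 0.0114). DDIT3 rested on 38 to 98 reads, and 355 of its 1307 exonic bases are shared with MARS on the opposite strand, which had 2164 to 2428 reads. DDIT3 also shares 58 bases with MBD6 on the opposite strand (777 to 1075 reads) and 105 with AC022506.1 on its own strand (0 reads in all libraries). Whether counting used strand is not given in the sources used here, nor is the handling of bases shared on the same strand. Reads in the shared bases therefore cannot be assigned to a gene.

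The regulators that restrain growth signalling split. SESN2 encodes a leucine sensor that holds back mTORC1, the kinase complex of growth control, and it rose. SESN2 was at 0.895, 0.904 and 0.769 FPKM in shNC and at 1.98, 2.16 and 1.82 FPKM in shScamp1 libraries. Every shScamp1 library was above every shNC library, and replicate 2 was the highest. Its log2 fold change of 1.13 passed (SE 0.14, adjusted p = 0.00423 by limma), as did 1.07 without replicate 2 (adjusted p = 0.00527). SESN2 was a low transcript, with 41 to 102 reads per library, and with a pseudocount of 1 in place of 0.1 its log2 fold change was 0.69.

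DDIT4 (REDD1), which inhibits mTORC1 through the TSC complex, was at 11.6, 10.9 and 13.5 FPKM in shNC and at 13.0, 7.67 and 13.5 FPKM in shScamp1 libraries. Replicates 1 and 3 fell in the shNC range and replicate 2 below it. The log2 fold change of DDIT4 was -0.11 (95% confidence interval -0.66 to 0.43, adjusted p = 0.765 by limma), and 0.15 without replicate 2 (adjusted p = 0.298). Of its 2058 exonic bases, 847 are shared with DDIT4-AS1 on the opposite strand, which was listed at 0 reads in all libraries.

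TRIB3, a pseudokinase that binds ATF4 and dampens its activity, was at 5.14, 5.05 and 5.88 FPKM in shNC and at 4.23, 4.64 and 4.34 FPKM in shScamp1 libraries. Its libraries did not overlap, and replicate 2 was the closest of the shScamp1 libraries to shNC. TRIB3 had a log2 fold change of -0.28 (SE 0.09, adjusted p = 0.0889 by limma), and of -0.31 without replicate 2 (adjusted p = 0.0394). The SE of TRIB3 was the smallest of the 6 genes that missed the threshold with all libraries.

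Of the metabolic genes, PSAT1 rose, CHAC1 was higher in every shScamp1 library without passing the test, and ASNS was barely detected. PSAT1, an aminotransferase of serine synthesis, was at 22.1, 18.5 and 20.6 FPKM in shNC and at 36.5, 30.1 and 34.3 FPKM in shScamp1 libraries, from 676 to 1166 reads. The groups were well apart, replicate 2 included. PSAT1 had a log2 fold change of 0.72 (SE 0.10, adjusted p = 0.00802 by limma), and of 0.79 without replicate 2 (adjusted p = 0.00178).

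CHAC1, which degrades glutathione, was at 1.23, 2.07 and 2.04 FPKM in shNC and at 3.93, 2.52 and 3.79 FPKM in shScamp1 libraries, from 40 to 118 reads. The lowest shScamp1 library, replicate 2, was still above the highest shNC library. CHAC1 had a log2 fold change of 0.91 (95% confidence interval 0.29 to 1.53, adjusted p = 0.0648 by limma), and of 1.11 without replicate 2 (adjusted p = 0.0191). ASNS, the asparagine synthetase, was at 0.212, 0.364 and 0.407 FPKM in shNC and at 0.353, 0.279 and 0.430 FPKM in shScamp1 libraries. These values came from 15 to 28 reads and overlapped between the groups, and a change could not be resolved at this depth. Fitted without the filter, the log2 fold change of ASNS was 0.10 (adjusted p = 0.895 by limma). ASNS shares 1985 of its 4455 exonic bases with AC079781.5 on the same strand, which had 9 to 16 reads, and how reads in shared bases were counted is not given in the sources used here.

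GDF15 showed the highest fold change of the 10 genes. It was at 27.8, 28.2 and 31.1 FPKM in shNC and at 147, 81.6 and 142 FPKM in shScamp1 libraries, from 921 to 4488 reads. The shNC libraries were close to each other, and the lowest shScamp1 library, replicate 2, was still above all of them. The mean rose from 29.1 ± 1.79 to 124 ± 36.5 FPKM (SD, n = 3 each). On the log2 scale the fold change of GDF15 was 2.04 (SE 0.23, adjusted p = 0.00323 by limma). Without replicate 2 the mean was 4.98-fold higher than in shNC, with a log2 fold change of 2.31 (adjusted p = 2.66e-05).

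**Figure D2:**
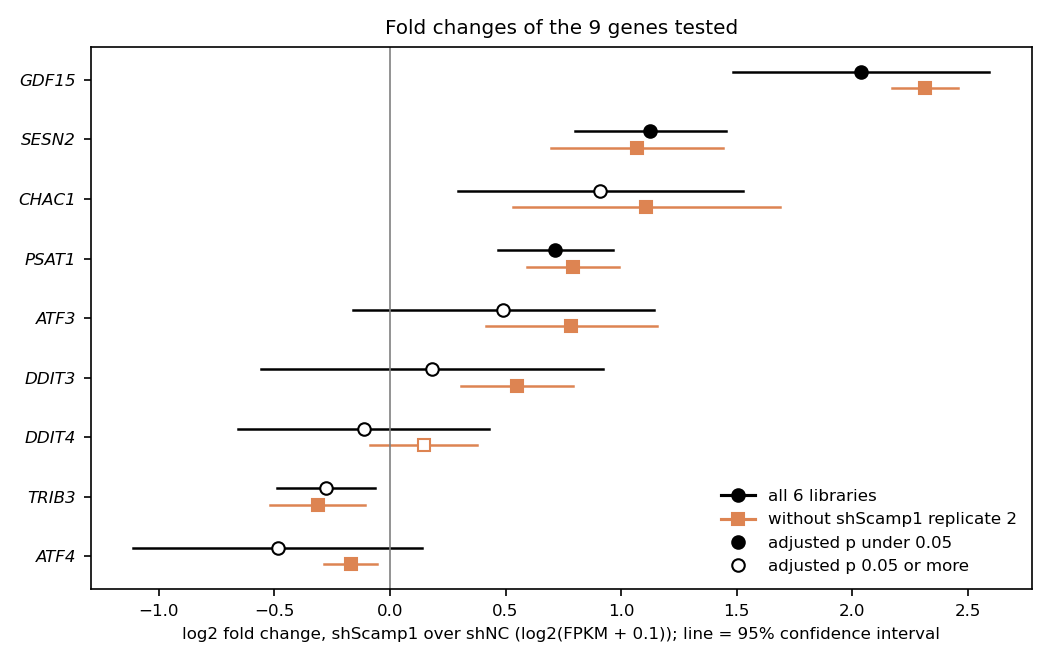
Log2 fold change of shScamp1 over shNC on the log2(FPKM + 0.1) scale for the 9 genes tested, with all 6 libraries (black circles) and without shScamp1 replicate 2 (orange squares); lines are 95% confidence intervals and filled markers have an adjusted p under 0.05. GDF15, SESN2 and PSAT1 are filled in both, while ATF4, ATF3, DDIT3, TRIB3 and CHAC1 are filled only without that library and DDIT4 in neither. The fit without that library keeps the shScamp1 libraries most alike, so its intervals can be too narrow.

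The genes whose profile over the 6 libraries was most like that of GDF15 were sought among 6576 protein-coding genes whose mean reached 5 FPKM, by the root mean square difference of log2(FPKM + 0.1) centred on the shNC mean. AQP5, a water channel of secretory epithelia, was the closest, with a difference of 0.112. It was at 3.78, 3.85 and 4.09 FPKM in shNC and at 18.4, 12.7 and 17.6 FPKM in shScamp1 libraries. Its mean reached 5 FPKM only through the shScamp1 libraries. As these genes were picked by likeness to the GDF15 profile, a low value in replicate 2 follows from the choice. CST6, a cysteine protease inhibitor (0.204), F3, the tissue factor that starts coagulation (0.207), CYP24A1, the enzyme that inactivates vitamin D (0.215), and IGFL1, a secreted growth factor-like protein (0.218), followed.

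Replicate 2 of shScamp1 lay below replicates 1 and 3 in most of the set. It was the lowest shScamp1 library for 8 of the 10 genes and the highest for SESN2 and TRIB3, whereas among all genes tested it was the lowest for 44.2% and the highest for 41.3%. Against the mean of replicates 1 and 3 on the log2 scale, its median difference was -0.69 over the 10 genes and -0.02 over all genes. The differences were -1.10 for DDIT3, -0.95 for ATF4, -0.88 for ATF3, -0.83 for GDF15 and -0.78 for DDIT4. Of all genes tested, 3.84% lay below the value of DDIT3, 5.18% below ATF4, 5.98% below ATF3, 6.96% below GDF15 and 7.79% below DDIT4. CHAC1 (-0.59), ASNS (-0.37) and PSAT1 (-0.23) were less low, and TRIB3 (0.11) and SESN2 (0.17) were slightly higher in replicate 2. Below these values lay 12.5% of all genes tested for CHAC1, 22.6% for ASNS, 31.8% for PSAT1, 61.8% for TRIB3 and 67.4% for SESN2. Of the 10 genes, only DDIT3 lay outside the 5th to 95th percentile of all genes tested (-0.96 to 0.86). ASNS, at 17 to 28 reads in the shScamp1 libraries, was itself below the filter. Replicate 2 had the mitochondrial share of 9.21%, and the part of that in these differences was not tested.

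**Figure D3:**
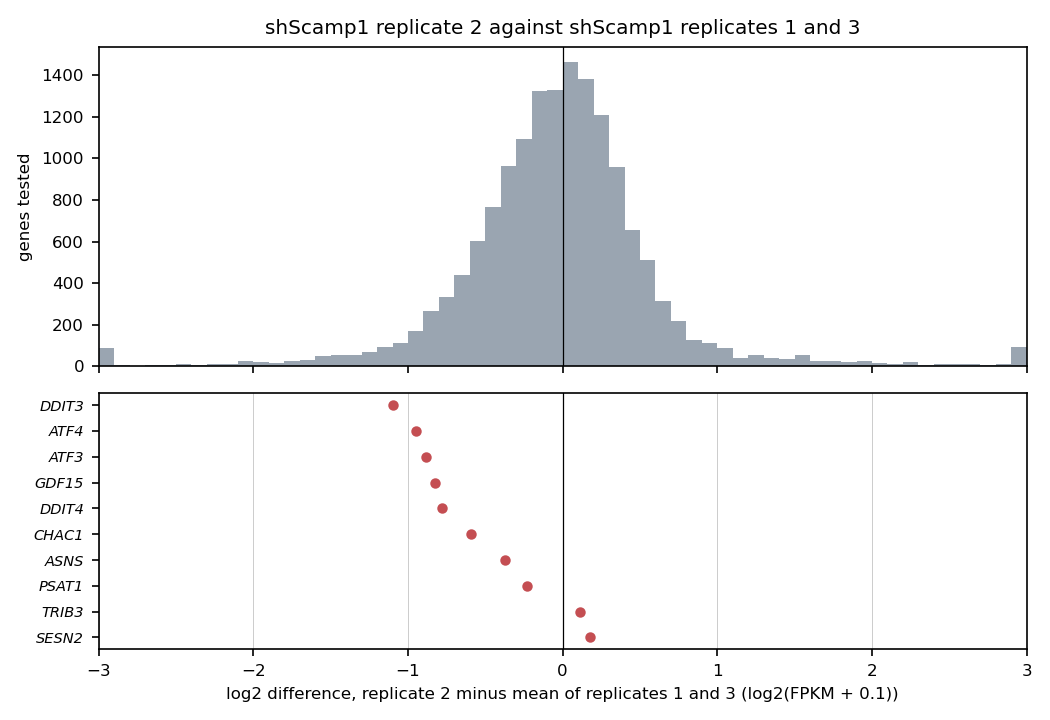
Upper panel, number of genes tested (vertical axis) by the log2 difference of shScamp1 replicate 2 from the mean of replicates 1 and 3, in steps of 0.1, with the end bars holding all genes beyond the axis. Lower panel, the same difference for each of the 10 genes as a point, from -1.10 for DDIT3 to 0.17 for SESN2.

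The rest of the pathway was read from 9 lists of genes with related roles, given by counts. With all libraries these counts are to be read against the 8.82% of all genes called higher and the 5.17% called lower. Each count without shScamp1 replicate 2 is to be read against 14.9% of all genes called higher and 13.4% called lower. In these lists 27 of 144 genes tested were called with all libraries, 20 higher and 7 lower, with a median of 0.02. Leaving out 1 library, the count was 8 without shNC replicate 1, 8 without shNC replicate 2, 8 without shNC replicate 3, 17 without shScamp1 replicate 1, 60 without shScamp1 replicate 2 (34 higher and 26 lower, against 14.9% and 13.4% of all genes) and 12 without shScamp1 replicate 3. SLC7A11, PMAIP1, ERO1A, SQSTM1, KLHL24, GDF11, CASTOR2 and FURIN were called whichever library was left out, and the other calls in the lists were lost without any one shNC library.

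Of 20 genes for the eIF2 kinases, eIF2 itself, its exchange factor, its phosphatases and proteins that regulate or signal to these, 2 (10%) were called higher with all libraries. This was a share near that of all genes, and the median log2 fold change was -0.00. Without shScamp1 replicate 2 the list had 4 genes called higher and 1 lower. EIF2AK2 (PKR), the kinase activated by double-stranded RNA, was called with a log2 fold change of 0.60 (adjusted p = 0.0389 by limma), and PPP1R15A (GADD34), the stress-induced subunit that directs dephosphorylation of eIF2, with 0.53 (adjusted p = 0.0466). Both calls were lost without any one shNC library, with adjusted p of up to 0.137 and 0.156. EIF2AK2 was at 12.0 to 13.0 FPKM in shNC and at 16.7 to 23.7 FPKM in shScamp1 libraries, where replicate 2 was the highest. PPP1R15A was at 8.60 to 10.5 FPKM in shNC and at 11.7 to 15.4 FPKM in shScamp1 libraries, where replicate 2 was the lowest. The heme-sensing EIF2AK1 (-0.13, adjusted p = 0.235 by limma), the endoplasmic reticulum kinase EIF2AK3 (-0.01, adjusted p = 0.976), the amino acid-sensing EIF2AK4 (0.05, adjusted p = 0.822) and the constitutive PPP1R15B (0.03, adjusted p = 0.854) did not pass with all libraries. Without shScamp1 replicate 2, EIF2AK1 was called lower, at -0.16 (adjusted p = 0.0354 by limma).

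Genes of amino acid supply were called in both directions. Of 22 genes listed, 18 were tested, with 2 called higher, 4 lower and a median of -0.16. SLC7A11, the cystine importer, rose with a log2 fold change of 1.24 (adjusted p = 0.00540 by limma), from 8.34 to 9.24 FPKM in shNC to 17.3 to 26.8 FPKM in shScamp1 libraries. SLC38A2, a carrier of neutral amino acids, was also called, with 0.27. The other enzymes of the serine route that PSAT1 belongs to were called lower with all libraries. PHGDH, the step before PSAT1, had a log2 fold change of -0.31 (adjusted p = 0.0309 by limma), and PSPH, the step after it, had -0.40 (adjusted p = 0.0314). PYCR1, the last enzyme of proline synthesis, had -0.55 (adjusted p = 0.0206 by limma). ALDH18A1, the other gene of the list called lower, had -0.27 (adjusted p = 0.0468 by limma). Without any one shNC library no call for a lower gene of this list was left, with adjusted p of up to 0.138 for PHGDH, 0.123 for PSPH and 0.0938 for PYCR1. Without shScamp1 replicate 2, 4 genes of the list were called higher and 9 lower. Of 21 tRNA synthetase and tRNA export genes, WARS (0.38) and CARS (0.32) were called higher, with a median of -0.04. Neither was called without any one shNC library, and without shScamp1 replicate 2 the list had 2 genes called higher and 7 lower.

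Of 18 further stress effectors, 13 were tested and 5 were called higher, with a median of 0.16. Without shScamp1 replicate 2, 14 were tested, with 6 called higher and 2 lower. PMAIP1 (NOXA), a pro-apoptotic BH3 protein, rose with a log2 fold change of 1.01 (adjusted p = 0.00884 by limma), and was at 10.0 to 10.8 FPKM in shNC and at 24.1, 16.5 and 23.2 FPKM in shScamp1 libraries. Replicate 2 was its lowest shScamp1 library, as for GDF15. ERO1A, an oxidase of disulfide formation, rose with 0.91 (adjusted p = 0.00114 by limma), the autophagy receptor SQSTM1 with 0.83 (adjusted p = 0.000657) and KLHL24 with 0.82 (adjusted p = 0.00919). SQSTM1 hardly varied within a group, at 39.5 to 40.5 FPKM in shNC and 70.5 to 71.4 FPKM in shScamp1 libraries, so that replicate 2 did not stand apart there. CEBPB, a dimer partner of ATF4, was at 33.6 to 38.6 FPKM in shNC and at 19.6 to 29.4 FPKM in shScamp1 libraries, with a log2 fold change of -0.53 (adjusted p = 0.0819 by limma) and of -0.35 without replicate 2 (adjusted p = 0.0165).

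The other branches of the unfolded protein response, run by IRE1 and ATF6, held 20 genes, of which HERPUD1 alone was called with all libraries. HERPUD1, a component of protein degradation at the endoplasmic reticulum, had a log2 fold change of 0.78 (adjusted p = 0.0115 by limma), from 4.55 to 4.60 FPKM in shNC to 6.52 to 8.76 FPKM in shScamp1 libraries. It narrowly missed the threshold without any one shNC library (adjusted p of up to 0.0571). The list had a median of 0.00, and without shScamp1 replicate 2 it had 4 genes called higher and 2 lower. The chaperone HSPA5 (BiP), at 183 to 186 FPKM in shNC and 184 to 190 FPKM in shScamp1 libraries, had a log2 fold change of 0.02 (adjusted p = 0.875 by limma), and XBP1 had -0.01 (adjusted p = 0.962).

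CDKN1A (p21), the cell cycle inhibitor, was at 5.55 to 6.66 FPKM in shNC and at 5.63 to 7.08 FPKM in shScamp1 libraries. Its groups overlapped, with a log2 fold change of 0.05 (adjusted p = 0.819 by limma).

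Of 29 bZIP genes that can pair with ATF4, ATF3 or CHOP, or that compete for their sites, 27 were tested, with 5 called higher, 1 lower and a median of 0.05. BATF2 (1.06), MAFF (0.61) and FOSL2 (0.46) were called higher, and CEBPA lower, with -0.85 (adjusted p = 0.0385 by limma). These calls were lost without any one shNC library, and without shScamp1 replicate 2 the list had 9 genes called higher and 4 lower. BATF2 was a low transcript, at 0.501 to 0.570 FPKM in shNC and 0.873 to 1.47 FPKM in shScamp1 libraries, from 22 to 61 reads. JUN had a log2 fold change of 0.05 (adjusted p = 0.749 by limma). Replicate 2 was the lowest shScamp1 library for 19 of the 27, with a median difference of -0.23 from replicates 1 and 3.

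Of the paralogs and more distant superfamily members of the 10 genes, TRIB1, TRIB2 and GDF11 passed the test with all libraries. SESN1 (0.10, adjusted p = 0.650 by limma) and SESN3 (0.25, adjusted p = 0.183), relatives of SESN2, and CHAC2 (-0.27, adjusted p = 0.112), the relative of CHAC1, did not pass. TRIB1 and TRIB2, relatives of TRIB3, had log2 fold changes of 0.43 (adjusted p = 0.0149 by limma) and 0.42 (adjusted p = 0.0303), and both calls were lost without any one shNC library, with adjusted p of up to 0.0795 and 0.122. ATF5 had 0.16 (adjusted p = 0.578 by limma), JDP2 was not tested at 0.632 FPKM in shNC and 0.334 FPKM in shScamp1 cells, and DDIT4L had no read in 5 of the 6 libraries. GDF11, of the same superfamily as GDF15, fell by 0.71 (adjusted p = 0.00388 by limma). Of 18 paralogs and superfamily members listed, 8 were tested, with 2 called higher, 1 lower and a median of 0.13.

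Around SESN2 and DDIT4, 20 of 22 genes of mTORC1 control were tested and 1, the arginine sensor subunit gene CASTOR2, was called, with a log2 fold change of 1.19 (adjusted p = 0.00649 by limma) and a list median of 0.09. Around GDF15, 6 of 9 genes for its receptors, processing proteases and promoter factors were tested, with a median of 0.09. FURIN, a protease that cleaves TGF-beta family precursors, rose with 0.48 (adjusted p = 0.00511 by limma), and EGR1 had -0.41 (adjusted p = 0.0132), a call lost without any one shNC library. GFRAL was between 0 and 0.153 FPKM and was not tested.

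**Figure D4:**
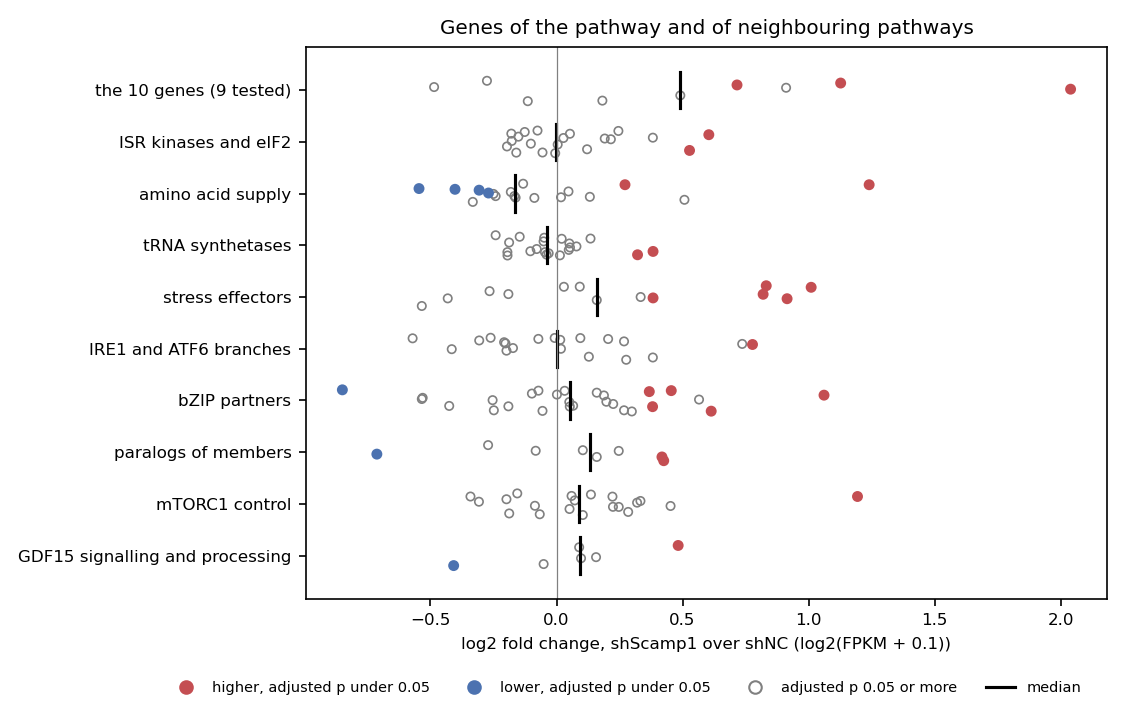
Log2 fold change of shScamp1 over shNC (log2(FPKM + 0.1) scale, all 6 libraries) for each tested gene of the 10 genes and of 9 lists, with called genes filled (red higher, blue lower) and a bar for each median. GDF15 at 2.04 is the rightmost point, the median of the top row is 0.49, and the medians of the 9 lists lie between -0.16 and 0.16. The 10 genes and the lists were chosen with earlier results of these data known, so these medians do not set the 10 genes apart.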

How the data were processed

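RNA was taken from shNC and shScamp1 NCI-N87 cells at about 80% confluence, per the labels, and sequenced by a company. The authors deposited FPKM per gene and library. The submitters' processing notes name HISAT2 2.0.5, featureCounts 1.5.0-p3, DESeq2 1.20.0 and hg38, without roles, and the coordinates of all 58735 genes equalled GENCODE 29. FPKM multiplied by gene length was a whole multiple of 1 step per library for 100% of values (tolerance 0.01 reads), which gave the reads quoted and showed that the authors' scaling already held a median-of-ratios size factor.

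Fold changes were fitted with limma 3.58.1 in R 4.3.3 (lmFit, eBayes with trend) on log2(FPKM + 0.1), for genes whose mean reached 0.5 FPKM, with all 6 libraries and no covariate. The design allowed for counts; reads recovered from FPKM were used only with voom, as an alternative. The fit was also run on simulated reads drawn with the same spread in every library. That run cannot show how the fit handles a library that stands apart. Medians, overlaps and promoter matches were computed in Python 3.11.15 with pandas 2.3.3.

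Genes named are the 10 genes and SCAMP1; up to 4 called genes per list with the largest absolute fold change; the eIF2 kinases and phosphatase subunits, HSPA5, XBP1, CEBPB, JUN, CDKN1A, GFRAL and direct paralogs, called or not; and the 5 profiles closest to GDF15. SLC38A2 and ALDH18A1, the remaining calls of the amino acid supply list, are named as well. The members and lists were chosen with earlier results of these data known. Overlapping genes were found in GENCODE 29. One of the 10 lists examined is not reported here, and the counts over lists in the report leave it out. Pseudogenes of ATF4, PSAT1 and ASNS had at most 18 reads. Alternatives covered pseudocount, filter, scaling, trend, biotypes, voom, a replicate block and leaving out each library.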

Additional observations from a re-analysis of the deposited data

How the results depend on the processing

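GDF15, SESN2, PSAT1 and SCAMP1 kept their direction and passed the test under all 16 alternatives, with adjusted p of at most 0.0239, 0.0282, 0.0436 and 0.00633 (limma). Leaving out each library in turn, the log2 fold change ranged from 1.89 to 2.31 for GDF15, 1.06 to 1.19 for SESN2, 0.65 to 0.79 for PSAT1, 0.68 to 1.11 for CHAC1, 0.29 to 0.78 for ATF3, -0.07 to 0.55 for DDIT3, -0.26 to 0.15 for DDIT4, -0.32 to -0.21 for TRIB3, -0.66 to -0.17 for ATF4 and -2.90 to -2.65 for SCAMP1. Only without shScamp1 replicate 2 did ATF4 (-0.17), ATF3 (0.78) and DDIT3 (0.55) pass, and the members called went from 3 to 8. TRIB3 (-0.31) and CHAC1 (1.11) passed there too. That fit keeps the shScamp1 libraries most alike, chosen after the spread was seen, so its calls weigh less than those with all libraries. TRIB3 also passed when scaled by total reads (-0.35, adjusted p = 0.0356), and CHAC1 with voom (0.96, adjusted p = 0.0337) and among protein-coding genes only (0.91, adjusted p = 0.0352). DDIT3 changed sign without shScamp1 replicate 1 (-0.069), as did DDIT4 without shScamp1 replicate 2 (0.15). With a pseudocount of 1, 1 member was differentially expressed in place of 2.

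Of all genes, 1372 were called higher and 805 lower. Scaling by total reads gave 1138 and 1268, no filter on low values gave 514 lower, and leaving out each library gave 651 to 2296 higher, 166 to 2078 lower and 10 to 69 calls in all 10 lists examined in place of 32. The replicate block gave 704 higher, 254 lower and 12 in the 10 lists, and the members called stayed at 3. Samples with the same number did not deviate together (correlations -0.04, 0.03 and 0.07), so the numbers were not read as pairs, and not every sample correlated best with its own number. The cause of these shifts was not tested. ASNS, at 15 to 28 reads, could not be resolved at this depth.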
